A study of Mus musculus with 5 samples.

Results

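The 10 genes described here, *Hspa5*, *Ddit3*, *Atf4*, *Xbp1*, *Trib3*, *Dnajb9*, *Herpud1*, *Ppp1r15a*, *Calr* and *Creld2*, serve the unfolded protein response and the integrated stress response. They were selected by name from the 20365 gene names of the deposited tables, and all 10 were found, on 13 of 40428 distinct 3′ UTR intervals. Where a gene had several intervals, the values are those of the interval whose mean CPM across labeled libraries was highest. The measurements come from cardiac fibroblasts (CF) of adult healthy male C57Bl/6J wildtype mice, isolated by perfusing the heart with collagenase, depleted of CD31+ and CD45+ cells and cultured to confluence. Labeled CF were kept for 12 h with 0.1 mM 4-thiouridine (S4U), a uridine analog built into newly made RNA, in 3 libraries. Unlabeled CF were kept in parallel for 12 h without S4U in 2 libraries. The RNA was alkylated, so that incorporated S4U reads as C in place of T, and sequenced from the 3′ end. All libraries thus come from cultured cells of healthy hearts, and which CF preparation gave which library is not stated in the sources used here.

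When unfolded proteins accumulate in the endoplasmic reticulum (ER), the sensors PERK, IRE1 and ATF6 raise the folding capacity of the ER and slow protein synthesis. PERK shares its target, the translation factor eIF2, with kinases that sense amino acid shortage, viral RNA and heme shortage, and phosphorylated eIF2 favours translation of the transcription factor ATF4. Fibroblasts make and secrete large amounts of matrix protein, which is folded in the ER. The T>C conversion rate of these genes shows how much of their RNA was made during labeling, and a comparison of their reads with and without S4U serves as a check for a stress response to the label.

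All 10 transcripts carried S4U, with mean T>C conversion rates from 0.0240 for *Calr* to 0.0473 for *Creld2*. A raised rate against unlabeled CF was called for all 10, as for 94.6% of all intervals tested. No gene of the 10 passed the adjusted threshold for a difference in reads between labeled and unlabeled CF in edgeR's test without a replicate block. With the replicate number as a block, 3 were called higher, *Trib3*, *Ddit3* and *Creld2*. Of all genes, 5.38% were then called higher and 6.30% lower. The labels do not say that equal numbers belong together. Without the block, the largest difference was that of *Trib3*, whose reads had a log2 fold change of 1.64 (SE 0.33). *Hspa5*, the most abundant of the 10 and the standard marker of the unfolded protein response, had a log2 fold change of −0.10 (SE 0.25), whose sign turned without labeled replicate 2 (0.0077) or without unlabeled replicate 1 (0.077).

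The sequences below show 3 kinds of element known from the control of stress genes. Whether they act on these genes in these cells was not tested. The ER stress response element, which ATF6 binds together with the factor NF-Y, was searched as CCAAT and CCACG separated by 9 bases on both strands of the RefSeq promoters (build GRCm38.p6, 250 bases before to 50 after each start site). It was present in 3 of 10 promoters of these genes, against 0.119% of all 32851 promoters. The sites are shown 5′ to 3′ on the strand that reads CCAAT first, with both fixed blocks in capitals.
Hspa5: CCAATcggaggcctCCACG
Calr: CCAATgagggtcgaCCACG
Creld2: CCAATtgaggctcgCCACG

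The *Hspa5* site lay at bases −65 to −47 from the start site, on the strand of the gene, and matched GRCm39 at chr2:34662037-34662055. Those of *Calr* (−162 to −144, chr8:85573704-85573722, plus strand) and *Creld2* (−126 to −108, chr15:88703723-88703741, minus strand) read on the strand opposite to the gene. The element was also found in 5 of 16 promoters of other ER chaperones and folding enzymes and in 2 of 12 of ER-associated degradation genes, but in 0 of 25 of ATF4 target genes. The IRE1-XBP1 element TGACGTGG was in 0 of the 10 promoters (0.676% of all promoters), as was the ATF4 element TGATGNAAT (0.965%), both strands searched. The latter was in 3 of 25 promoters of ATF4 target genes.

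*Xbp1* encodes the transcription factor that IRE1 activates by cutting 26 bases out of its mRNA. In the annotation of GRCm39, these bases lie at chr11:5474278-5474303 on the plus strand, shown in capitals with 2 bases on each side.
Xbp1: ccGCAGCACTCAGACTATGTGCACCTCTgc

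The excised stretch is not a multiple of 3 long, so that removing it moves the stop codon. The 2 *Xbp1* intervals of the tables began directly after these stops, at 5474905 for the unspliced and 5475243 for the spliced reading frame, and both ended at 5475993. The shorter lay within the longer, which began 601 bases past the excised bases, so the spliced and the unspliced mRNA were not resolved.

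AU-rich elements in the 3′ UTR shorten the life of many stress transcripts. Copies of ATTTA were counted on the strand of the gene, and the densest stretches are shown with the copies in capitals.
Ppp1r15a: attATTTATTTATTTATTTAttt
Xbp1: tccATTTATTTAaaa

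The *Ppp1r15a* stretch (GRCm39, chr7:45172378-45172400, minus strand) held all 4 overlapping ATTTA copies of an interval of only 76 bases. The *Xbp1* stretch (chr11:5475846-5475860, plus strand) held 2 of 4 copies. *Dnajb9* had 4 copies, *Hspa5* had 3, and the other 6 genes had 0. ATTTA occurred in 71.0% of the intervals of all genes tested for a T>C rate, and in 47.4% of those of up to 1100 bases. The longer TTATTTATT, which overlaps it, was found in *Ppp1r15a* alone among the 10 genes and in 8.56% of all genes.

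Depth ranged from 506045 reads in labeled replicate 3 to 1843033 reads in unlabeled replicate 1, counting each gene on a single interval. Levels are given as CPM relative to these counted reads, and 3′ end libraries give reads per transcript with no dependence on transcript length. Fibroblast markers (*Col1a1* highest, 8 of 8 detected) summed to 30563 to 33491 CPM in the labeled and 23415 to 27164 CPM in the unlabeled libraries, without overlap. Macrophage markers summed to 76.1 to 137 CPM and 78.1 to 146 CPM, and endothelial markers to 160 to 281 CPM and 192 to 278 CPM. Mural markers summed to 78.0 to 178 CPM and 157 to 166 CPM. Cardiomyocyte markers stayed at or below 9.03 CPM in every library, with *Myl2* and *Ryr2* at 0, and epicardial markers at or below 7.90 CPM, with *Msln*, *Krt19*, *Muc16* and *Bnc1* at 0. In such bulk libraries, fewer cells of a type and less RNA per cell cannot be told apart.

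Newly made RNA was found for each of the 10 genes. In a beta-binomial likelihood-ratio test of the T>C rate, labeled against unlabeled, all 10 passed the threshold of p below 0.05, with the largest p for *Ppp1r15a* (6.26e-05) and the smallest for *Hspa5* (2.64e-07). Of all 19240 intervals tested, 94.6% were called in the same direction, so the call itself does not set these genes apart. Their rates are therefore given beside the 2107 genes that had 1000 or more covered T positions in each of the 5 libraries (deeply covered genes), whose median rate was 0.0388 (quartiles 0.0343 and 0.0422). Of the 10 genes, 5 were above and 5 below that median.

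**Figure D1:**
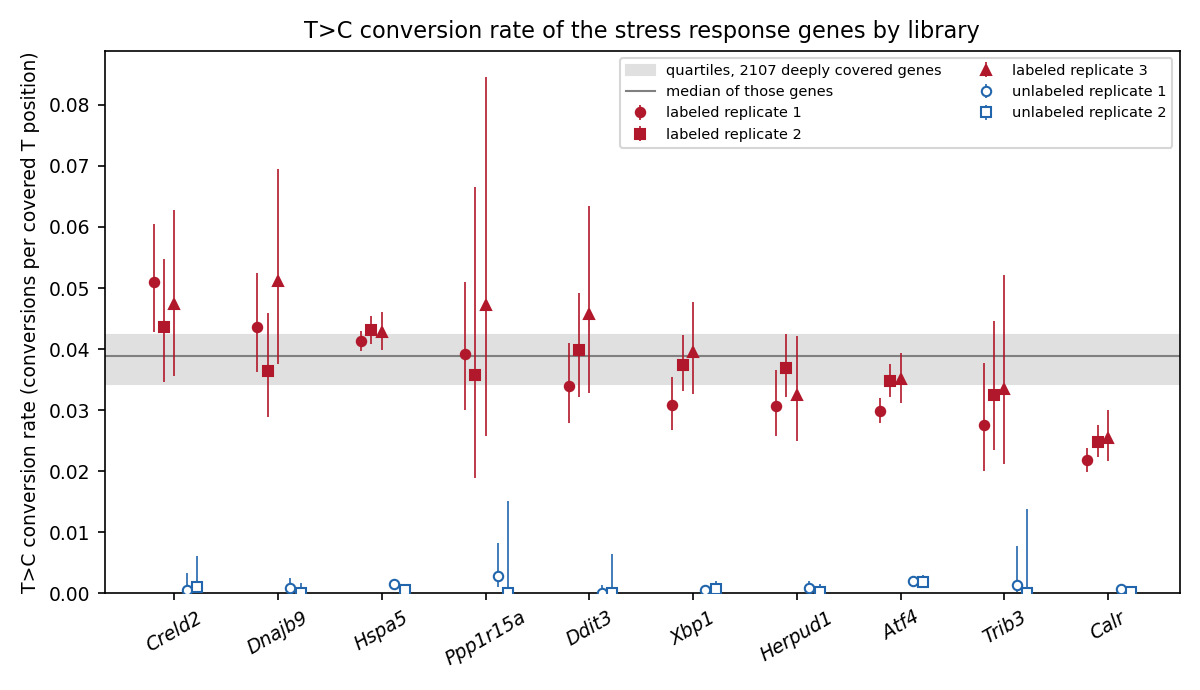
T>C conversion rate (conversions per covered T position) of each gene in each library, with Wilson 95% intervals, which cover counting error only. Filled symbols are the 3 labeled and open symbols the 2 unlabeled libraries, the line and band are the median and quartiles of 2107 deeply covered genes, and *Calr* lies below the band in all 3 labeled libraries while *Hspa5* lies above the line in all 3.

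Among the genes of the ATF4 arm, *Atf4*, the transcription factor at its centre, had rates of 0.0299, 0.0348 and 0.0350 in labeled replicates 1, 2 and 3. The mean was 0.0333 ± 0.0029 (SD, n = 3), and 22.3% of the deeply covered genes had a lower mean. Its unlabeled rates, 0.00204 and 0.00191, were above the unlabeled median of those genes, 0.000510. *Ddit3*, encoding CHOP, a transcription factor linked to cell death in prolonged stress, had rates of 0.0339, 0.0398 and 0.0457 (mean 0.0398 ± 0.0059, SD, n = 3). It had no conversion in either unlabeled library, and 3 conversions, the limit used for a count of 0, would be a rate of 0.00105 at 2844 and 0.00509 at 589 covered T positions. The upper ends of the Wilson 95% intervals drawn in the plot of rates are 0.00135 and 0.00648.

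*Trib3*, a pseudokinase induced by ATF4 and CHOP, had rates of 0.0276, 0.0324 and 0.0334 (mean 0.0311 ± 0.0031, SD, n = 3). *Ppp1r15a*, encoding GADD34, which returns eIF2 to its unphosphorylated form, had rates of 0.0392, 0.0357 and 0.0472 (mean 0.0407 ± 0.0059, SD, n = 3). These rest on few reads, with 9 and 8 reads in labeled replicates 2 and 3, where the Wilson 95% intervals ran from 0.0189 to 0.0665 and from 0.0258 to 0.0846. The rates of *Ddit3*, *Ppp1r15a*, *Atf4* and *Trib3* thus spread over both sides of the median of all deeply covered genes.

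*Xbp1* had rates of 0.0308, 0.0374 and 0.0395 (mean 0.0359 ± 0.0046, SD, n = 3). *Dnajb9*, an ER co-chaperone and a classical target of XBP1, had rates of 0.0436, 0.0364 and 0.0511 (mean 0.0437 ± 0.0074, SD, n = 3). *Herpud1*, which helps to assemble the machinery for ER-associated degradation, had rates of 0.0307, 0.0369 and 0.0324 (mean 0.0334 ± 0.0032, SD, n = 3). The ranges of these 3 genes overlapped. The reads of *Dnajb9* also differed in T content, with 18.9 and 20.0 covered T positions per read in labeled and unlabeled replicate 1, against 29.6 and 28.2 in replicate 2 of both groups and 25.6 in labeled replicate 3. A stretch of 188 bases of its interval has a copy with 98.9% identity on chromosome X, so its reads are uncertain to that extent.

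The genes with an ER stress response element in the promoter, *Hspa5*, *Calr* and *Creld2*, were not alike in rate. *Hspa5*, encoding BiP, the ER chaperone that also holds the stress sensors inactive, had rates of 0.0413, 0.0431 and 0.0429 (mean 0.0424 ± 0.00097, SD, n = 3) on 16165 to 55887 covered T positions. *Calr*, encoding calreticulin, a calcium-binding lectin that folds glycoproteins, had rates of 0.0218, 0.0248 and 0.0255 (mean 0.0240 ± 0.0020, SD, n = 3) on 5574 to 20886 covered T positions. Every labeled library was higher for *Hspa5* than for *Calr*, and the Wilson 95% intervals of both genes did not overlap in any labeled library. *Creld2*, an ER-resident protein induced by ER stress, had rates of 0.0509, 0.0436 and 0.0474 (mean 0.0473 ± 0.0037, SD, n = 3), and 96.2% of the deeply covered genes had a lower mean. These 3 genes span the lowest and the highest rate of the 10.

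In the order of mean rates, *Creld2*, *Dnajb9*, *Hspa5*, *Ppp1r15a*, *Ddit3*, *Xbp1*, *Herpud1*, *Atf4*, *Trib3* and *Calr*, each neighbouring pair overlapped in range except *Trib3* and *Calr*. The share of reads with at least 1 conversion ran from 31.6% ± 1.5 for *Calr* (SD, n = 3) and 41.0% ± 5.2 for *Trib3* to 62.2% ± 1.8 for *Hspa5* and 64.1% ± 10.6 for *Dnajb9*, so both measures put *Calr* last and *Trib3* next to last. *Creld2*, first by rate, was the fifth by this share. The share also depends on the covered T positions per read. In the labeled libraries, these were 15.8 to 18.5 for *Trib3* and 18.9 to 29.6 for *Dnajb9*. Converted reads of the 10 genes carried a mean of 1.56 to 1.64 conversions in the labeled libraries. In the unlabeled libraries, there were 202 and 43 conversions on 202 and 43 converted reads, a mean of 1.

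Of the list of 20 other ER chaperones and folding enzymes, 12 were deeply covered, with a median rate of 0.0273, below the 0.0388 of all deeply covered genes. *Hspa5* had a higher mean rate than 11 of these 12, the exception being *Selenok* (0.0440), a selenoprotein of the ER membrane, followed by *Hspa13* (0.0407). The lowest were *Ppib* (0.0115), a prolyl isomerase for collagen, and *Pdia3* (0.0170), a disulfide isomerase that works with calreticulin. *Calr* was higher than 3 of the 12. This is a description of the rates, since no test between genes was made.

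**Figure D2:**
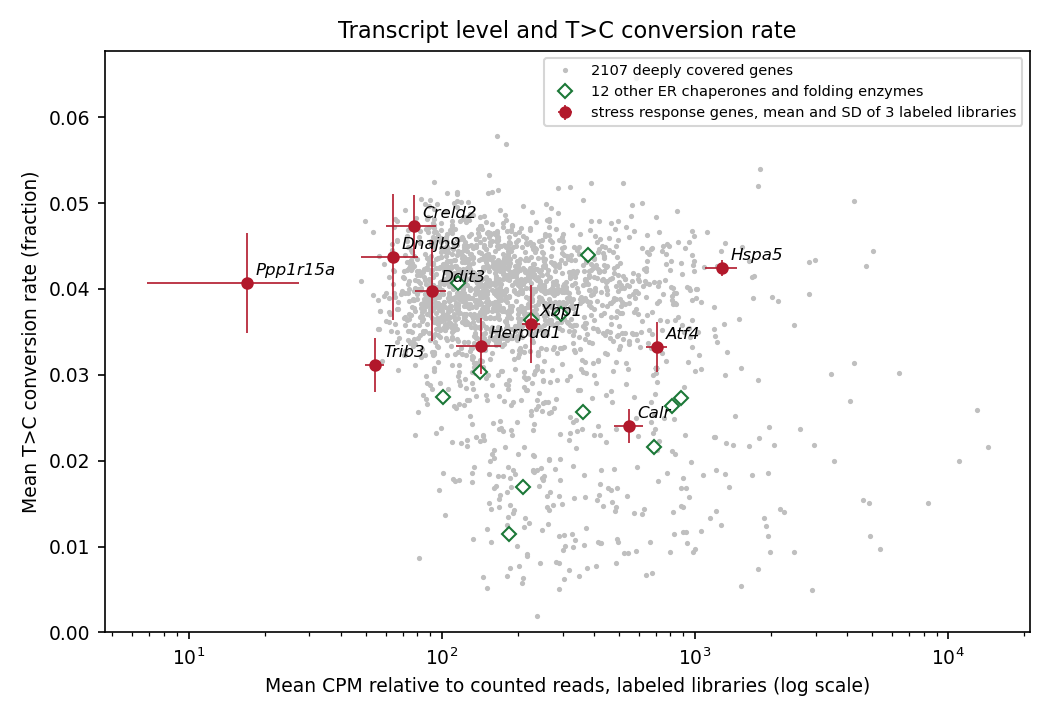
Mean T>C conversion rate against mean level (CPM relative to counted reads, log axis) in the 3 labeled libraries, with SD bars for the 10 genes. Grey points are 2107 deeply covered genes and diamonds the 12 deeply covered ER chaperones and folding enzymes outside the 10, of which 11 lie below *Hspa5*.

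The levels of the 10 genes spanned from 17.1 ± 10.3 CPM for *Ppp1r15a* to 1282 ± 186 CPM for *Hspa5* (SD, n = 3 labeled libraries). *Atf4* followed with 710 ± 66 CPM and *Calr* with 551 ± 74 CPM, and their ranges overlapped. *Xbp1* was at 226 ± 18 CPM and *Herpud1* at 143 ± 29 CPM, each apart from its neighbours. *Ddit3* (91.3 ± 12.9 CPM), *Creld2* (77.5 ± 17.3 CPM), *Dnajb9* (64.4 ± 16.4 CPM) and *Trib3* (54.5 ± 4.6 CPM) each overlapped with the next, and *Ppp1r15a* lay below *Trib3*. The 10 genes together took 2932 to 3521 CPM in the labeled and 2733 and 3465 CPM in the unlabeled libraries, so their summed level overlapped between the groups.

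**Figure D3:**
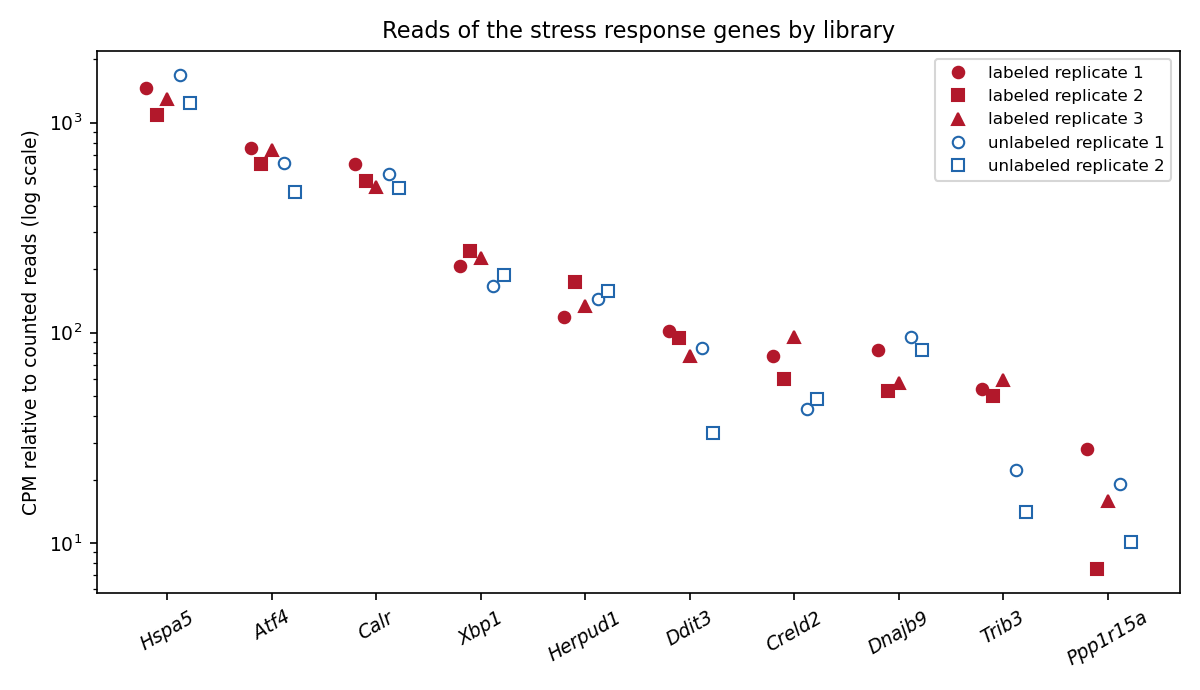
Reads of the 10 genes in each library as CPM relative to counted reads, on a log axis. Filled symbols are labeled and open symbols unlabeled libraries, and all labeled points lie above both unlabeled points for *Xbp1*, *Creld2* and *Trib3* only.

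Whether reads of these genes were higher with S4U was tested with edgeR's quasi-likelihood test across 9807 genes, in which 0 genes passed an adjusted p of 0.05 (0% higher, 0% lower) and the smallest adjusted p was 0.433. At an unadjusted p below 0.05, 2.84% of all genes were higher and 3.12% lower, and DESeq2 called 13 genes higher and 5 lower at an adjusted p below 0.05, none of them among the 10 (*Ppp1r15a* was given no adjusted p). At an unadjusted edgeR p below 0.05, *Trib3* and *Creld2* were higher and 0 of the 10 genes lower. On the CPM scale, 3 of 10 had every labeled library above both unlabeled ones, as had 8.20% of all genes tested, and 0 of 10 had every labeled library below, as had 13.1%. On TMM-normalized CPM, a scale added after the data were seen, 5 of 10 lay above without overlap, as did 10.4% of all genes, with *Ddit3* and *Atf4* joining. With the replicate number as a block, edgeR called *Trib3*, *Ddit3* and *Creld2* higher, where 5.38% of all genes were called higher and 6.30% lower. Labeled replicate 3 has no unlabeled partner in that fit and does not enter its difference. The labels also do not say that equal numbers belong together. Fold changes above 0 were estimated for 7 of 10 against 51.7% of all genes, with a median log2 fold change of 0.36 against 0.02. The median of the 10 was 0.17 without unlabeled replicate 2, and on the total behind the deposited CPM it was −0.058 with 3 of 10 above 0, where that of all genes was −0.43. These 10 values come from the same 5 libraries. The study's methods name 3 CF preparations for this assay without tying them to libraries, so the p-values measure the spread between these libraries.

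*Trib3* was at 53.9, 50.2 and 59.3 CPM in labeled replicates 1, 2 and 3 and at 22.2 and 14.1 CPM in unlabeled replicates 1 and 2. All labeled libraries were higher and the groups did not overlap. The log2 fold change was 1.64 (SE 0.33, edgeR adjusted p = 0.531). The values rest on 30 to 85 reads in the labeled and 14 and 41 reads in the unlabeled libraries.

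*Creld2* was at 77.4, 60.3 and 94.9 CPM in the labeled and 43.4 and 48.2 CPM in the unlabeled libraries, again without overlap. Its log2 fold change was 0.83 (SE 0.32, edgeR adjusted p = 0.793). *Xbp1* was at 207, 244 and 227 CPM against 167 and 189 CPM, also without overlap but with a smaller log2 fold change of 0.42 (SE 0.24, edgeR adjusted p = 0.961).

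*Ddit3* was at 102, 94.6 and 77.1 CPM in the labeled and 84.6 and 33.1 CPM in the unlabeled libraries. The groups overlapped, and the unlabeled libraries lay further apart than the labeled ones. The log2 fold change of *Ddit3* was 0.71 (SE 0.40, edgeR adjusted p = 0.955), 0.23 without unlabeled replicate 2 and 1.49 without unlabeled replicate 1. *Atf4* was at 756, 633 and 739 CPM against 643 and 470 CPM, overlapping through labeled replicate 2, with a log2 fold change of 0.43 (SE 0.25, edgeR adjusted p = 0.961) that was 0.26 without unlabeled replicate 2. *Ppp1r15a* varied widely within the groups, at 27.9, 7.53 and 15.8 CPM against 19.0 and 10.04 CPM, with a log2 fold change of 0.31 (SE 0.60) that turned to −0.37 without labeled replicate 1.

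The remaining 4 genes overlapped between the groups as well. *Hspa5* was at 1459, 1089 and 1298 CPM in the labeled and 1677 and 1239 CPM in the unlabeled libraries. *Calr* was at 634, 526 and 492 CPM against 568 and 490 CPM, with a log2 fold change of 0.14 (SE 0.23) that was 0.040 without labeled replicate 1 and 0.074 without unlabeled replicate 2. Among the 10 genes, the chaperones with the most reads thus differed by less than the spread between libraries. *Herpud1* was at 119, 175 and 134 CPM against 145 and 158 CPM, with a log2 fold change of −0.01 (SE 0.27). *Dnajb9* was at 83.1, 52.7 and 57.3 CPM against 94.95 and 82.3 CPM, the lowest fold change of the 10 at −0.38 on the log2 scale (SE 0.29, edgeR adjusted p = 0.999), −0.60 without labeled replicate 1 and −0.24 without labeled replicate 2. Where the total behind the deposited CPM was the library size, the median of all genes moved to −0.43, and *Atf4* (−0.059), *Xbp1* (−0.043), *Ppp1r15a* (−0.056) and *Calr* (−0.27) fell below 0 but not below that median.

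**Figure D4:**
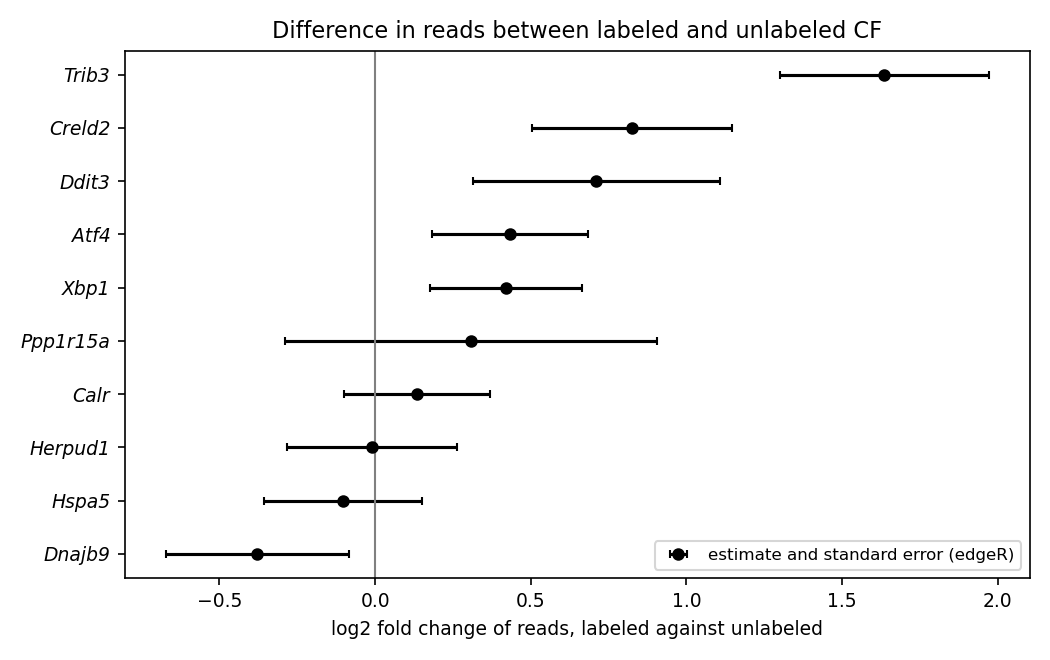
Log2 fold change of reads, labeled against unlabeled CF, of each gene with its standard error from edgeR across all 9807 genes tested. *Trib3* (1.64) and *Creld2* (0.83) lie farthest above 0 and *Dnajb9* (−0.38) farthest below. None passed the adjusted threshold in this fit, which has no replicate block.

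The fibroblast marker sums given above also differed between the groups without overlap. Their part in the read differences was not tested.

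Other genes of the same pathways were read from 5 lists, none of which had a gene past the adjusted threshold in edgeR without the replicate block. With the block, edgeR called 8 ATF4 target genes higher and 1 lower, against the 5.38% and 6.30% of all genes given above. It also called 2 ER chaperones and folding enzymes and 1 gene of ER-associated degradation higher, 1 sensor lower and 0 heat shock genes. ATF4 target genes, mostly of amino acid supply and tRNA charging, had the highest median log2 fold change of the lists, 0.46. Of 23 tested, 20 were above 0 (background 51.7%) and 4 were higher at an unadjusted p below 0.05 (background 2.84%). *Gdf15*, a stress-induced cytokine that p53 also induces, was at 199, 117 and 117 CPM in the labeled and 35.8 and 30.1 CPM in the unlabeled libraries. Its log2 fold change was 2.20 (SE 0.35, edgeR adjusted p = 0.433). *Nupr1*, a stress-induced chromatin protein, was at 191, 182 and 130 CPM against 96.6 and 51.2 CPM, with a log2 fold change of 1.26 (SE 0.34, edgeR adjusted p = 0.624).

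*Mthfd2*, a mitochondrial enzyme of folate metabolism, was at 148, 223 and 217 CPM against 62.4 and 106 CPM, with a log2 fold change of 1.29 (SE 0.37, edgeR adjusted p = 0.626). *Chac1*, which degrades glutathione, is named because it completes the 4 and was chosen after its values were seen. It had 8, 35 and 12 reads against 5 and 5, or 5.08, 29.3 and 23.7 CPM against 2.71 and 5.02 CPM, so labeled replicate 1 barely exceeded unlabeled replicate 2, and a log2 fold change of 2.40 (SE 0.88, edgeR adjusted p = 0.767). Every labeled library was above both unlabeled ones for these 4 genes, and for 6 of 23 in all, against 8.20% of all genes. The reverse order was found for 1 of 23, *Psat1*, an enzyme of serine synthesis named after its values were seen, with a log2 fold change of −0.73 (SE 0.35, edgeR adjusted p = 0.900), against 13.1% of all genes. *Trib3*, which belongs to the same targets by its known biology, likewise had every labeled library above both unlabeled ones. Of the list, *Atf3*, *Phgdh*, *Slc7a11*, *Stc2* and *Cth* had too few reads to be tested. Among its 12 deeply covered genes, T>C rates ran from *Ddit4* (0.0302) and *Atf5* (0.0316) to *Tars* (0.0406) and *Mthfd2* (0.0406), with a median of 0.0381.

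**Figure D5:**
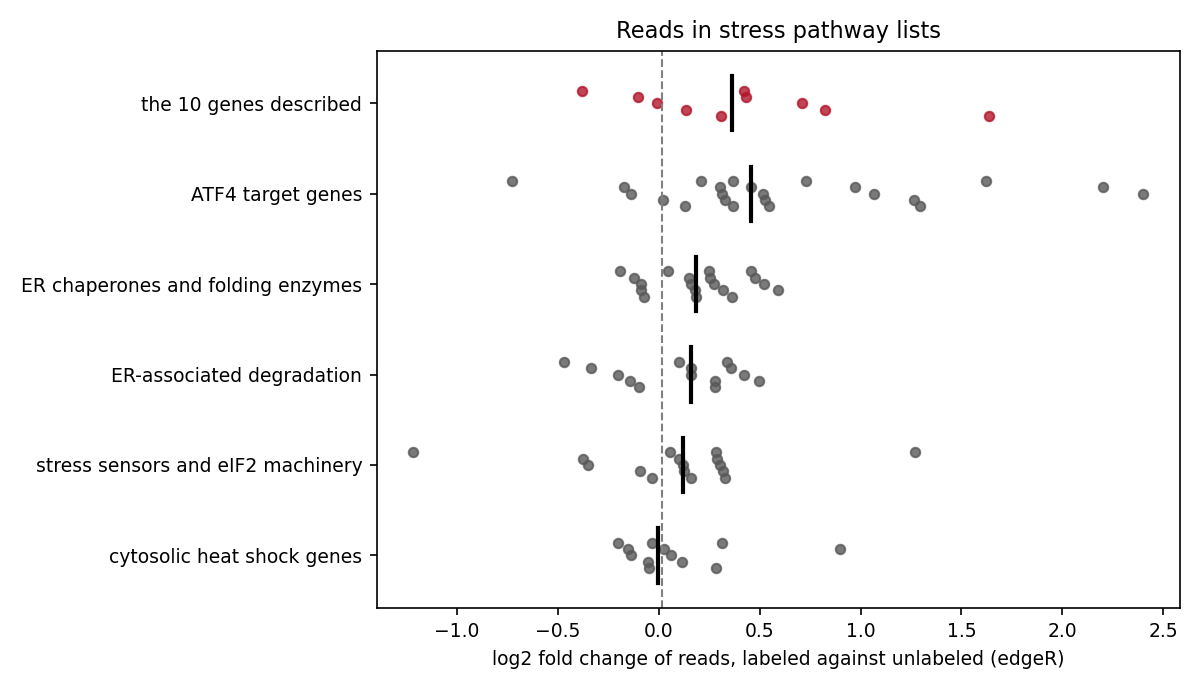
Log2 fold change of reads, labeled against unlabeled, of each tested gene (points) of the 10 genes and of 5 lists, with the list median as a bar and the median of all 9807 genes as a dashed line. The medians are 0.36 for the 10 genes, 0.46 for ATF4 target genes, 0.19 for ER chaperones and 0.16 for ER-associated degradation. Those of the other lists are 0.12 for sensors and eIF2 machinery and −0.00 for heat shock genes outside the ER.

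The other lists lay nearer to 0, and 51.7% of all genes tested had a fold change above 0. Of 19 ER chaperones and folding enzymes tested, 14 had a fold change above 0 and 0 passed an unadjusted p of 0.05, with a median of 0.19 on the log2 scale. The smallest p values belonged to *Ppib* (log2 fold change 0.59), *Pdia3* (0.52) and *Pdia6* (0.27), the latter 2 being disulfide isomerases. Of 14 genes of ER-associated degradation, 9 were above 0 and 0 passed, with *Herpud2* (0.49), *Ubxn4* (0.42) and *Edem1* (−0.34) first by p. Among the 8 deeply covered genes of the list, T>C rates ran from 0.0106 for the lectin *Os9* and 0.0140 for *Herpud2* to 0.0441 for *Ubxn4*. The *Herpud2* interval shares its strand with *Gm10180*, so its reads are uncertain.

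Among 16 stress sensors and genes of the eIF2 machinery, 11 were above 0 (background 51.7%). At an unadjusted p below 0.05, 0 were higher (background 2.84%) and 1 was lower (background 3.12%). This was *Eif2ak4*, the kinase that senses uncharged tRNA, with a log2 fold change of −1.22 (SE 0.40, edgeR adjusted p = 0.725). The reads of *Eif2ak4* were 14, 13 and 4 in the labeled and 51 and 18 in the unlabeled libraries. *Eif2b3* (1.27, on 9, 19 and 5 reads against 9 and 4) and *Mbtps1* (−0.37) followed by p. The T>C rates of the 3 deeply covered genes of this list were 0.0390 for *Ppp1r15b*, 0.0353 for *Eif2ak2* and 0.0333 for *Mbtps1*. The last list held cytosolic heat shock genes, which answer to protein damage outside the ER, and the mitochondrial chaperonin genes *Hspe1* and *Hspd1*. Its genes were split evenly, 6 above and 6 below 0 of 12, with 0 at an unadjusted p below 0.05. First by p were *Hsp90ab1* (0.31), *Hspb1* (0.90) and *Bag3* (0.29), and the rates of the 4 deeply covered genes ran from 0.0389 for *Hsp90ab1* and 0.0399 for *Bag3* to 0.0403 for *Dnaja1* and 0.0487 for *Hspe1*.

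The intervals of *Ddit3*, *Hspa5*, *Ppp1r15a* and *Xbp1* overlap genes on the opposite strand in the annotation of GRCm39 (*Mars1*, *Rabepk*, *Tulp2* and *Ccdc117*). Those of *Eif2ak4* (*Srp14*), *Nupr1* (*Gm39087*), *Ppib* (*Snx22*), *Pdia6* (*Atp6v1c2*), *Os9* (*Agap2*), *Hsp90ab1* (*Slc35b2*), *Hspe1* (*Hspd1*) and *Dnaja1* (*Smu1*) do so too, and that of *Eif2ak2* overlaps *Gpatch11* on the opposite and *Gm6548* on the same strand. Whether counting used the strand is not stated in the sources used here, so reads of such partners may be included. The *Calr* interval has a copy with 91.0% identity over 555 bases on chromosome 2.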

How the data were processed

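The authors extracted the UMIs with umi-tools, used SLAM-DUNK 0.4.3 with mm39 as the reference for mapping, deduplicated the mapped reads and deposited, per interval, counts of reads, converted reads, covered T positions and conversions. The deposited conversion rate is a fraction (conversions per covered T), and the deposited CPM is scaled to a total that was 7.58 to 28.9 times the reads counted on 1 interval per gene. Repeated rows of a gene name were used once, and values are recomputed here as CPM relative to counted reads. Names that share an interval each kept its values. Among the deeply covered genes, *Pcdhga1* and *Pcdhga2*, for example, both have a mean rate of 0.0308 and 704 CPM.

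T>C rates were tested with a beta-binomial likelihood-ratio test (two-sided, 1 shared overdispersion, intervals with 1 or more covered T per library). Reads were tested with edgeR 4.0.16 (quasi-likelihood, TMM, filterByExpr, Benjamini-Hochberg). DESeq2 1.42.0, limma 3.58.1 on log odds (pseudocount 0.5), other filters and library sizes, the replicate block and each library left out were alternatives. R 4.3.3, Python 3.11.15, scipy 1.17.1 and BLAST+ 2.17.0 were used. Between 506045 and 1843033 reads per library set the precision. No pair of libraries within a group agreed within sampling noise, and each was counted as a replicate.

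On simulated data, the beta-binomial test called 98% of 200 changed intervals and 7.46% of the unchanged ones among 3000. Of 200 genes with a log2 fold change of 2 among 9807, edgeR recovered 123 with 4 false calls. With the replicate block it recovered 61 with 2 false calls. The counts were simulated without a replicate effect, so they do not show how the block performs on these libraries.

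The members and lists were chosen with earlier results of these data known. Named were the 10 genes and, per list, genes past the adjusted threshold, the 3 with the smallest edgeR p, and the 2 highest and 2 lowest T>C rates among the deeply covered genes. Some values under this rule are not reported here. Promoters were RefSeq's (GRCm38.p6), genes GRCm39's, and all 10 matched both.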

Additional observations from a re-analysis of the deposited data

How the results depend on the processing

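Raised T>C rates were called for 18200 intervals, 13618 with at least 100 covered T positions, 3154 with at least 1000, 10641 with 1 interval per gene, and 17056 to 18632 with a library left out. All 10 genes kept the call except that only 5 could be tested, and 5 were called, at 1000 covered T positions. For reads, DESeq2 called 18 genes, none of them among the 10, and edgeR called 0 with each library left out, with other size factors and with other filters. With the replicate block, edgeR called 1146 genes (528 higher, 5.38%, and 618 lower, 6.30%), among them 3 of the 10: *Trib3* (log2 fold change 1.53, adjusted p = 6.23e-07), *Ddit3* (0.78, adjusted p = 0.00193) and *Creld2* (0.68, adjusted p = 0.0184). Of the list genes named, *Gdf15*, *Nupr1*, *Mthfd2*, *Chac1*, *Tars*, *Ppib* and *Ubxn4* were also called higher and *Eif2ak4* and *Psat1* lower with the block. The labels do not say that equal numbers share a preparation. Deviations of equal numbers correlated with 0.784 and 0.638 over genes, but labeled replicate 3 also correlated with unlabeled replicate 2 (0.482), and with 2 unlabeled libraries, whose deviations are opposite, each labeled library must match one of them. The block leaves 1 residual degree of freedom. Labeled replicate 3 has no unlabeled partner of its number, so the block fits it alone. The difference between the groups then rests on replicates 1 and 2 of both groups. By chi-square per degree of freedom, labeled replicates 2 and 3 were closest (2.20). With the deposited total as library size, *Atf4* (−0.059), *Xbp1* (−0.043), *Ppp1r15a* (−0.056) and *Calr* (−0.27) changed sign. With a library left out, *Hspa5* ranged from −0.27 to 0.077, *Herpud1* from −0.18 to 0.13 and *Ppp1r15a* from −0.37 to 0.81, also changing sign, while *Trib3* ranged from 1.40 to 1.97. On TMM-normalized CPM, an alternative added after the data were seen, 5 of 10 genes (10.4% of all genes) did not overlap, with *Ddit3* and *Atf4* added.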
